A study of Mus musculus with 2 samples.

Results

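Type I interferon acts on most cells of the body, and a large set of genes is switched on in response. The genes described here are 47 interferon-stimulated genes (ISGs) that lie outside the large ISG families (the Ifit, Oas, Gbp, Irg, Ifitm, Trim and Slfn genes and their partners). They were taken from a fixed list by gene symbol and not by a threshold on their signals. Of the 47 genes, 44 had a probe that could be named through its RefSeq accession, with 61 probes in all, and these 44 are among 22911 named genes on the array. All 44 gave a signal well above background on both arrays, as 13411 of the named genes did. The other 3, Mx1, Mx2 and Rnf213, were not analysed here.

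RNA levels were read on 2 Agilent mouse arrays with a single dye, both on the same slide. The cells were LKS+ cells, which are sorted from mouse BM as lineage-negative with Kit and Sca-1 on the surface and include the hematopoietic stem and progenitor cells (HSPCs). Wild-type LKS+ cells that had been expanded in serum-free medium with stem cell factor, IL-6 and IL-3 received 150 μg/ml extracellular vesicles (EVs) from mouse SP for 24 h. In 1 culture the EVs came from normal mice (control EVs) and in the other from mice with chronic myeloid leukemia (CML EVs), which had been given BCR-ABL-transduced cells and, as the methods state, were irradiated before the SP was taken. The labels name CML mice without mention of irradiation, and no irradiation of the normal donors is described, and the effects of leukemia and of irradiation in the donors therefore cannot be told apart. Wild-type mice of the study were male BALB/c or C57BL/6J animals, and neither the labels nor the methods say which strain or how many mice gave these cells or EVs. No culture without EVs is among the samples, and in what follows the basal signal is the signal with control EVs. With 1 array per condition no difference has a replicate check or a p-value, and each value describes these 2 cultures.

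Interferon binds a receptor made of Ifnar1 and Ifnar2, and the kinases Jak1 and Tyk2 then activate STAT proteins, Stat2 among them, which join Irf9 in the complex ISGF3. ISGF3 binds the interferon-stimulated response element (ISRE) in the promoters of ISGs, whereas STAT dimers bind the gamma-activated site (GAS). The products of ISGs block viruses at many steps, by cutting, editing or sensing RNA, by modifying proteins with ISG15 or ADP-ribose, or by regulating transcription and cell death. HSPCs are known to respond to interferon by leaving quiescence, and some ISGs are already expressed in stem cells without infection.

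Promoter sequences are shown for the members that bound the range of the results: Isg20 and Ifi44l, with the highest ratios of CML EVs over control EVs, Plscr1 and Cnp, with the lowest, and Sp110 and Ms4a4c, with the brightest basal signals. Isg15 was added after its values were seen, as a member among the 8 highest ratios whose window holds ISRE matches. Members with ISRE matches and low ratios, such as Adar and Ogfr, are not shown. Each sequence is the 250 bases 5′ of a gene start in RefSeq, assembly GRCm38.p6, written 5′ to 3′ on the gene's strand. Capitals mark a match, on either strand, to the ISRE core GAAANNGAA or to the GAS letters TTCNNNGAA, and matches to both can share bases because both end in GAA.
Isg20, chr7:78913174-78913423, plus strand: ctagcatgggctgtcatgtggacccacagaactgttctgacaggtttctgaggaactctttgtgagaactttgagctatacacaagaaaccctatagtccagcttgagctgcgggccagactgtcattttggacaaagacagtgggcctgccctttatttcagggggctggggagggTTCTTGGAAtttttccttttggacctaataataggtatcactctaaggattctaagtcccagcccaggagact
Ifi44l, chr3:151762892-151763141, minus strand: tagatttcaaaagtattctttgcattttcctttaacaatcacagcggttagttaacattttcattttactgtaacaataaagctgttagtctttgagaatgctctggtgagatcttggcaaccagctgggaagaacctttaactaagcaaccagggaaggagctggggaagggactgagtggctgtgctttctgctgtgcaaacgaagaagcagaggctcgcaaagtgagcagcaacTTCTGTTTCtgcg
Isg15, chr4:156200819-156201068, minus strand: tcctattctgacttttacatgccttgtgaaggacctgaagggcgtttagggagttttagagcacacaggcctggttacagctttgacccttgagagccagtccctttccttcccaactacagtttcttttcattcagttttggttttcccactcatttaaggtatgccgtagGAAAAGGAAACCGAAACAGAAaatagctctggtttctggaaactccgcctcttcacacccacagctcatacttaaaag
Plscr1, chr9:92249944-92250193, plus strand: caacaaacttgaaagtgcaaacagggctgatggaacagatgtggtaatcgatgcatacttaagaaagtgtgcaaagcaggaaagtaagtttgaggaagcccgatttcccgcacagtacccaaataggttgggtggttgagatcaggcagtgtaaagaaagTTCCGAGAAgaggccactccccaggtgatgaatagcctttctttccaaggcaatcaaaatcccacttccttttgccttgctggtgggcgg
Cnp, chr11:100574689-100574938, plus strand: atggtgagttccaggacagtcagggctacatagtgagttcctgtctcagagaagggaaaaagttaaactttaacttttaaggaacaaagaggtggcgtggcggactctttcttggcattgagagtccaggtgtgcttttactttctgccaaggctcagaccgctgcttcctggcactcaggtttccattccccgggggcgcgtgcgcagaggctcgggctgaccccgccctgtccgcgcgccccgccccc
Sp110, chr1:85603892-85604141, minus strand: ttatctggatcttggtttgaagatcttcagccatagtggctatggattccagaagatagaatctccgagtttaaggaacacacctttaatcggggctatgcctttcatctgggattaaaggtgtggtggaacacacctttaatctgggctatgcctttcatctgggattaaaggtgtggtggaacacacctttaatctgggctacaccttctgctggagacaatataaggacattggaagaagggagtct
Ms4a4c, chr19:11407411-11407660, plus strand: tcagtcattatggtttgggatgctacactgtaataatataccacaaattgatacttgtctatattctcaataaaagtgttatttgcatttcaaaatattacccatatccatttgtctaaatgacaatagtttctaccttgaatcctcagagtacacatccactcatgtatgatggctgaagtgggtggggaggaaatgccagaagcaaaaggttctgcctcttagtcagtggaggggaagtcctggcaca
Isg15 holds 3 overlapping ISRE matches that begin 78, 72 and 66 bases before the gene start, and the match of Ifi44l begins 13 bases before it. The capitals of Isg20 and Plscr1 are GAS matches, at 73 and 90 bases before the start. Isg20 has 3 promoter windows and none holds an ISRE match. The windows of Cnp, Sp110 and Ms4a4c shown here hold neither motif.

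Most of these ISGs were slightly brighter with CML EVs. The arrays read bulk RNA, in which fewer cells of a type and less RNA per cell cannot be told apart. Of the 44 measured members, 40 had a log2 ratio (CML EVs over control EVs) above 0, or 90.9%, against 51.9% of all 13411 genes above background, and 4 had a ratio below 0 (9.09%), against 48.1%. The median log2 ratio of the members was 0.14 (1.105-fold, with quartiles of 0.067 and 0.24), and that of all genes was 0.0065 (quartiles of -0.090 and 0.095). At least 1.2-fold higher were 7 members (15.9%), namely Isg20, Ifi44l, Isg15, Ifi44, Eif2ak2, Parp12 and Phf11d, against 6.96% of all genes, and no member was 1.2-fold lower, against 7.52%. When the arrays were scaled to their medians instead, every log2 ratio was higher by 0.070, 17 members were past 1.2-fold, and all genes at this fold split into 11.0% higher and 4.94% lower. A fold of 1.1 was reached upwards by 22 members, against 17.3% of all genes, and downwards by 1, Plscr1, against 17.2%. No member reached 1.5-fold in either direction, as 1.52% of all genes did upwards and 1.18% downwards. The step from inside to outside the fold of 1.2 was small: Phf11d stood at 1.217-fold and Samhd1, the next member, at 1.192-fold.

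**Figure D1:**
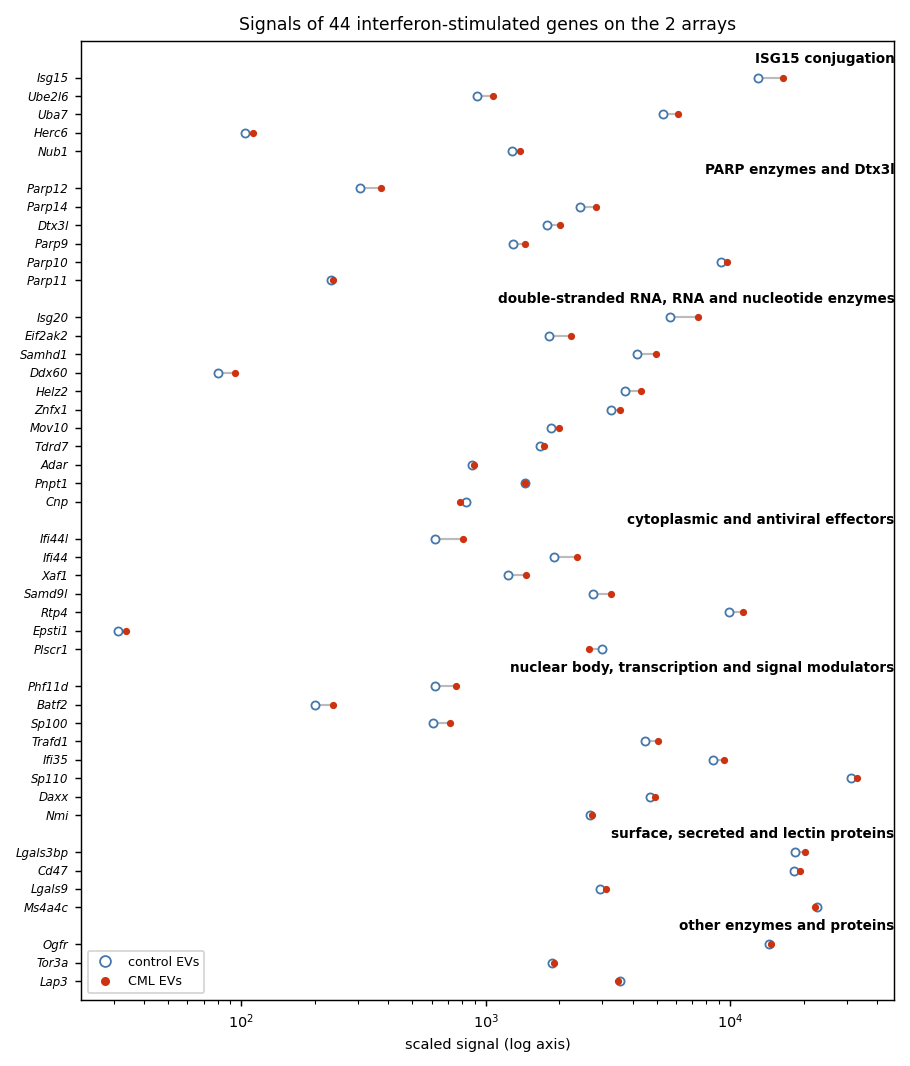
Scaled signal of each of the 44 measured members on the 2 arrays (horizontal log axis, intensity units after scaling), grouped by the role of the gene product, with open circles for control EVs and filled circles for CML EVs. The filled circle lies to the right of the open one for 40 members and to the left for Cnp, Plscr1, Lap3 and Ms4a4c (the last 2 turn with median scaling), and every gap is below 1.5-fold.

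The only spread that the arrays themselves hold is that of repeated spots. Over 272 probes placed 10 times on the array with a log2 signal of 8 or more, the SD of the log2 ratio had a median of 0.034, and over 11 dimmer probes it was 0.157. Of the members, 33 lay more than 2 such SDs (of the brighter probes) above 0, as did 31.6% of all genes, and 2, Cnp and Plscr1, lay more than 2 below it, as did 29.5%. The ratios of 8 members, Nmi, Adar, Parp11, Ogfr, Tor3a, Pnpt1, Lap3 and Ms4a4c, lay within 1 SD of 0, and those of Parp11, Ogfr, Pnpt1, Lap3 and Ms4a4c changed sign under another scaling or background correction. The 5 members with a log2 basal signal under 8 were Batf2, Ddx60, Epsti1, Herc6 and Parp11, and for Epsti1 (0.11) and Herc6 (0.11) the ratio was smaller than the spread of the dim probes. This spread covers spotting and scanning and neither the culture nor the EV preparation. The scanner software attaches a modelled error to each signal, which is wider: it came to a median of 0.20 for the log2 ratio of a member (0.20 to 0.28). By that measure 17 members were higher by more than 1 error and none was lower by as much, against 9.33% of all genes higher and 9.43% lower. The ratio of no member left its modelled 95% interval, as those of 617 genes (4.6%) did.

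Of the genes grouped here with Isg15, which include Nub1, Isg15, Uba7, Ube2l6 and Nub1 were higher with CML EVs by more than 2 spot SDs, as were 31.6% of all genes. By the wider modelled error Isg15, Uba7 and Ube2l6 were higher by more than 1 error, as were 9.33% of all genes, and Nub1 was not. Isg15 is a small ubiquitin-like protein that is attached to other proteins, and its probe read 12959 with control EVs and 16461 with CML EVs (1.27-fold, log2 ratio 0.35). It was the only gene of the group past 1.2-fold. Uba7, the enzyme that activates ISG15, read 5300 and 6142 (1.159-fold), and Ube2l6, which carries ISG15 to its targets, read 919 and 1068 (1.162-fold). The ratios of these enzymes were thus nearly equal on the log2 scale (0.21 and 0.22), while their probes differed in brightness. Herc6, the ligase that completes the conjugation in the mouse, gave a dim signal of 103 and 111 (1.079-fold), a difference smaller than the spread of dim probes, and its log2 ratio was 0.00012 after normexp background correction. Nub1, which lowers the level of the related modifier NEDD8, read 1285 and 1380 (1.073-fold). All 5 genes had a ratio above 0, against 51.9% of all genes, with a median of 0.21. Signals of different probes are not a measure of transcript number, since each probe binds with its own strength, so that brightest and dimmest refer to probes throughout.

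Of the ADP-ribosylating enzymes and Dtx3l, 5 of 6 were higher by more than 2 spot SDs, as were 31.6% of all genes. Parp11 was not. By the wider modelled error only Parp12 and Parp14 were higher by more than 1 error, as were 9.33% of all genes. Parp12, a mono-ADP-ribosyltransferase with zinc fingers, was dim and the highest of them, at 306 with control EVs and 375 with CML EVs (1.224-fold). Parp14, a large macrodomain protein of this class, read 2435 and 2836 (1.164-fold). The ubiquitin ligase Dtx3l read 1786 and 2009 (1.125-fold), and its binding partner Parp9 read 1295 and 1449 (1.119-fold). Parp14, Dtx3l and Parp9 are neighbours on chromosome 16 in the RefSeq gene order, and their log2 ratios were 0.22, 0.17 and 0.16. Parp10 had the brightest probe of the group with 9142 and 9758 and differed by little (1.067-fold). For Parp11 the signals of 234 and 237 were nearly equal (log2 ratio 0.022, and -0.017 after normexp background correction). The median log2 ratio of these 6 genes was 0.17.

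Enzymes that act on RNA and nucleotides ranged from a log2 ratio of -0.073 to 0.38. Isg20, an exonuclease that degrades RNA from its 3′ end, had the highest ratio of all members: its probe read 5676 with control EVs and 7397 with CML EVs (1.303-fold, log2 ratio 0.38). Among all 13411 genes Isg20 ranked 494 by ratio. The methods list PCR primers for Isg20, and the paper took PCR genes from the most upregulated ones shared by its type I interferon gene sets. The rank of Isg20 is therefore not taken as an independent observation. The PCR result in the paper names Rsad2, Irf7 and Cxcl10 as enhanced and does not name Isg20. Eif2ak2 encodes PKR, the kinase that stops translation when it binds double-stranded RNA, and read 1814 and 2233 (1.231-fold). Samhd1, which breaks down the nucleotides needed for DNA synthesis, read 4164 and 4962 (1.192-fold). The helicase genes Ddx60 (80.3 and 94.0, 1.17-fold), Helz2 (3711 and 4321, 1.164-fold), Znfx1 (3241 and 3529, 1.089-fold) and Mov10 (1847 and 2000, 1.083-fold) were higher by less. A dimmer probe of Helz2 gave a log2 ratio of -0.18, and averaging the Helz2 probes gave 0.017. Tdrd7, a Tudor domain protein, read 1675 and 1729 (1.033-fold), and Adar, which edits adenosine in double-stranded RNA, read 875 and 892 (1.02-fold). Pnpt1, a mitochondrial RNA exonuclease, gave 1443 and 1445, with no difference beyond spot spread (log2 ratio 0.0012). Cnp, a cyclic nucleotide phosphodiesterase best known from myelin, was the only gene of the group with a lower signal, at 827 and 786 (1.052-fold lower). Of the 11 genes, 10 were above 0 and 2 were past 1.2-fold, against 51.9% and 6.96% of all genes, and the median log2 ratio was 0.12.

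Among the cytoplasmic and antiviral effectors lay both the highest median and the lowest single value. Ifi44l and Ifi44 are a pair of related cytoplasmic proteins whose genes are neighbours on chromosome 3. Ifi44l read 621 with control EVs and 807 with CML EVs (1.3-fold, log2 ratio 0.38), and Ifi44 read 1900 and 2360 (1.242-fold, 0.31). Xaf1, a pro-apoptotic antagonist of the inhibitor XIAP, read 1233 and 1467 (1.19-fold). Samd9l, whose product restrains the growth of hematopoietic cells, read 2739 and 3249 (1.186-fold). The signal of Rtp4, a Golgi-linked chaperone with antiviral action, was 9929 and 11278 (1.136-fold). Epsti1 was the dimmest member, with 31.3 and 33.8 (1.079-fold). Plscr1, a phospholipid scramblase with antiviral action, had the lowest ratio of all 44 members, with 3005 and 2635 (1.14-fold lower, log2 ratio -0.19). Of the 7 measured genes 6 were above 0, against 51.9% of all genes, and the median log2 ratio was 0.25. Mx1, Mx2 and Rnf213 belong to this role as well.

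Genes of nuclear bodies, transcription and signal modulation had ratios above 0 in 8 of 8 cases, against 51.9% of all genes. Their median log2 ratio was 0.17. By the wider modelled error only Phf11d, Batf2 and Sp100 were higher by more than 1 error, as were 9.33% of all genes. The ratio of Nmi lay within 1 spot SD of 0, and probes of Sp110 and Daxx lay on both sides of 0. Phf11d, a PHD finger protein, read 618 with control EVs and 753 with CML EVs (1.217-fold). Batf2, a basic leucine zipper factor, was dim at 201 and 238 (1.184-fold), and Sp100, a component of nuclear bodies, read 607 and 716 (1.178-fold). Trafd1, a feedback inhibitor of innate immune signaling, read 4473 and 5062 (1.131-fold). Ifi35 (8489 and 9453, 1.114-fold) and its binding partner Nmi (2668 and 2724, 1.021-fold) had unequal ratios. Daxx, a histone chaperone of nuclear bodies, read 4697 and 4944 (1.053-fold). Sp110, a nuclear body protein related to Sp100, was the brightest member, with signals of 31247 and 33209 (1.063-fold). Sp100, Sp110, Phf11d and Ms4a4c have close relatives in the mouse genome, and whether their probes bind these as well was not checked.

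Surface, secreted and lectin proteins were bright and differed little. Lgals3bp, a secreted glycoprotein that binds galectins, read 18424 with control EVs and 20192 with CML EVs (1.096-fold). Cd47, the surface signal that protects a cell from being engulfed, read 18204 and 19342 (1.062-fold), and Lgals9, a galectin, read 2937 and 3117 (1.061-fold). Ms4a4c, a membrane protein and the second brightest member, was at 22705 and 22251, a log2 ratio of -0.029 that lay within the spread of repeated spots. The median log2 ratio of these 4 genes was 0.087. The remaining genes, Ogfr (14469 and 14680), an opioid growth factor receptor, Tor3a (1869 and 1895), a torsin ATPase, and Lap3 (3557 and 3490), a leucine aminopeptidase, had log2 ratios of 0.021, 0.020 and -0.028, all within spot spread.

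**Figure D2:**
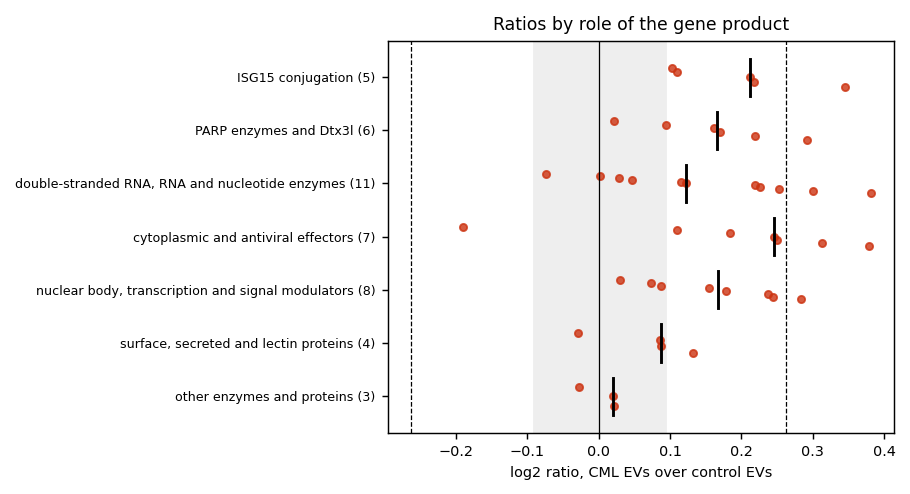
Log2 ratio (CML EVs over control EVs, horizontal axis) for the 44 measured members, 1 point per gene, by the role of the gene product, with the number of genes in brackets and a bar at the median of each role. The grey band spans the quartiles of all 13411 genes and the dashed lines mark 1.2-fold, and the medians of 5 roles lie to the right of the band while those of the surface proteins (0.087) and the other enzymes (0.020) lie inside it.

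Basal signal and ratio were only weakly related among the members. The members had bright probes: their median basal signal was 2168 against 700 for all genes, and 35 of 44 lay above the median gene. Across the 44 members, Pearson's r between the log2 basal signal and the log2 ratio was -0.12 and Spearman's rho was -0.15, whereas across all 13411 genes r was 0.077 and rho 0.14. The points of these correlations are genes on the same 2 arrays and are no independent replicates, and the basal signal is itself the denominator of the ratio. With the CML EV signal in its place rho was -0.084 among members and 0.20 among all genes, and with the mean of both log2 signals it was -0.12 and 0.17. Leaving out Ddx60 and Epsti1, the 2 members with a basal signal under 100, gave a rho of -0.14. The processing moved it further, to between -0.26 and -0.28 after quantile normalization, removal of a loess trend or averaging of a gene's probes, and to 0.0055 after normexp background correction, which turned its sign.

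Ordered by basal signal, the 15 dimmest members had the highest median ratio, while all genes in their range had the lowest. The 15 dimmest (31.3 to 1295) had a median log2 ratio of 0.22, with 14 of 15 above 0 and Ifi44l, Parp12 and Phf11d past 1.2-fold. All genes in that range of signal had a median of -0.014, with 7.14% past 1.2-fold higher and 10.5% past it lower. The next 15 members (1443 to 3711) had a median of 0.12, with 13 above 0 and Eif2ak2 and Ifi44 past the fold, where all genes had a median of 0.019, 2.67% were past the fold higher and 0.888% past it lower. The 14 brightest (4164 to 31247) had a median of 0.14, with 13 above 0 and Isg15 and Isg20 past the fold, against a median of 0.036 for all genes, with 3.62% past the fold higher and 0.919% past it lower. Members past 1.2-fold thus had basal signals from 306 (Parp12) to 12959 (Isg15), and members with a ratio below 0 from 827 (Cnp) to 22705 (Ms4a4c).

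**Figure D3:**
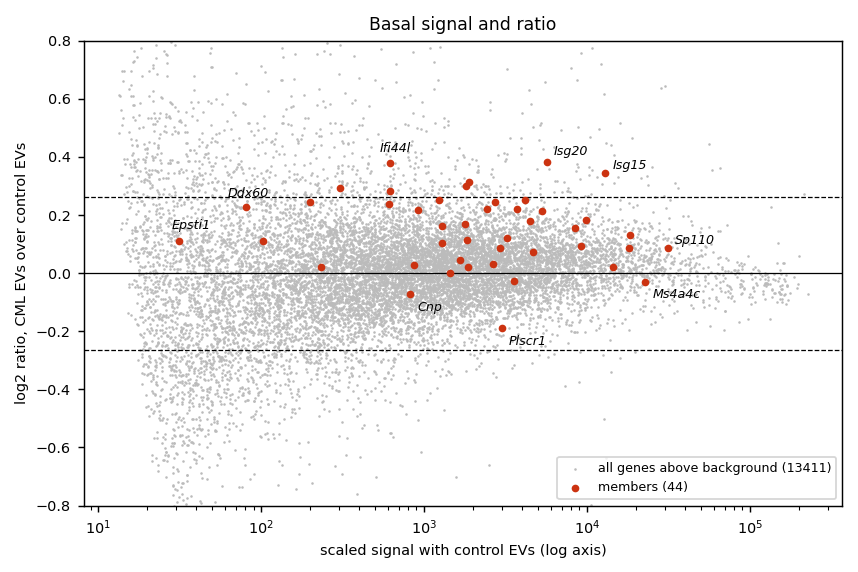
Log2 ratio (CML EVs over control EVs, vertical axis) against the scaled signal with control EVs (horizontal log axis) for 13411 genes above background (grey) and the 44 members (red), with dashed lines at 1.2-fold. Members above the upper line lie between signals of 306 and 12959, the grey cloud is widest at low signals, and 162 genes lie beyond the vertical range and are not drawn.

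Several probes of a gene gave a further look at the same 2 cultures, although they are no replicates. Of 60 member probes above background on both arrays 53 had a ratio above 0, with a median log2 ratio of 0.14. Of all genes, each read by 1 probe, 51.9% were above 0. Another Parp9 probe was not well above background and was not used. Among 13 members with several such probes, all probes were above 0 in 10, and the median gap between a gene's lowest and highest ratio was 0.16 on the log2 scale. Isg20 had the closest high values, with log2 ratios of 0.38 and 0.41 from probes that read 5676 and 1581 with control EVs. The 3 probes of Samhd1 gave log2 ratios of 0.20, 0.25 and 0.27, those of Ifi35 0.16 and 0.22, and those of Adar 0.028 and 0.047. In Xaf1 the gap was largest: the brighter probe gave 0.25, and a dim probe with signals of 39.3 and 63.4 gave 0.69. Dim probes were also the higher ones in Ddx60 (0.48 against 0.23), Parp11 (0.37 against 0.022) and Pnpt1 (0.19 against 0.0012). Probes of 3 genes lay on both sides of 0. Helz2 was at 0.22 by its bright probe and at -0.18 by a probe with signals of 283 and 249, Sp110 ranged from -0.090 to 0.088 and Daxx from -0.028 to 0.13.

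**Figure D4:**
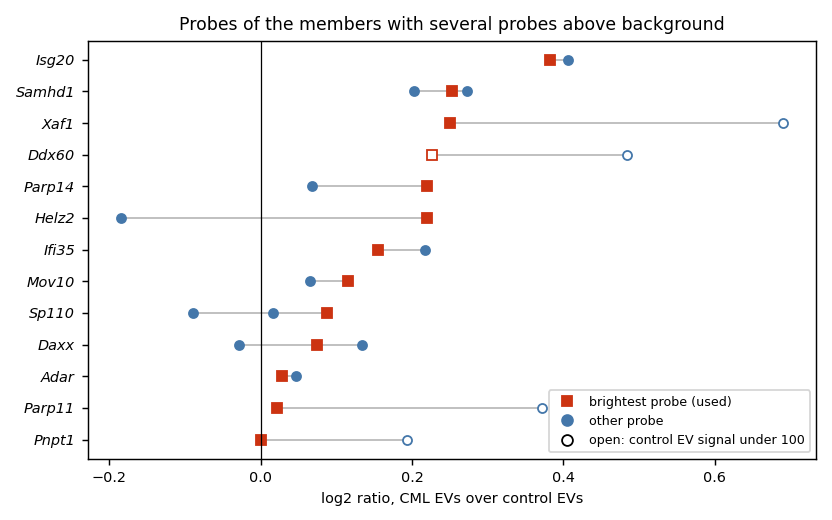
Log2 ratio (CML EVs over control EVs, horizontal axis) of every probe above background for the 13 members with several probes, with squares for the probe used, circles for the others and open symbols for a control EV signal under 100. The probes of Isg20 nearly coincide at 0.38 and 0.41, those of Helz2, Sp110 and Daxx fall on both sides of 0, and the widest gap, that of Xaf1, ends in a dim probe.

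Members held ISRE letters in a promoter window more often than genes at large. A promoter window of 300 bases, 250 before and 50 after the gene start, was given for 39 of the 47 members. GAAANNGAA on either strand was found in 11 of them (28.2%), against 9.76% of 27025 genes with such windows and 8.85% of the 10728 measured genes among these. These shares count genes, and some genes had several windows (32851 windows in all, and 11 members with more than 1). The shares were not adjusted for the number of windows. The 11 members with a match were Adar, Ddx60, Eif2ak2, Ifi44, Ifi44l, Isg15, Lgals9, Ogfr, Parp11, Samd9l and Tdrd7. Their median log2 ratio was 0.23 (0.021 to 0.38) with 4 of 11 past 1.2-fold, and the 27 measured members without a match had a median of 0.12 (-0.19 to 0.38) with 3 past it, so that the ranges overlapped. TTCNNNGAA was found in 7 (17.9%), against 9.55% of all genes, and these 7, Adar, Eif2ak2, Ifi35, Isg20, Parp11, Plscr1 and Samhd1, had a median of 0.16 and held both the highest and the lowest ratio. Adar, Eif2ak2 and Parp11 held both motifs. A match describes the letters of a window, and a window without one says only that these letters are absent from it.

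The ISGs of the large families had higher ratios on the same 2 arrays. Of 49 measured family genes 44 were above 0 and 29 were at least 1.2-fold higher, with a median log2 ratio of 0.29, against 7 of 44 and 0.14 for the genes outside the families. Of all genes 51.9% were above 0 and 6.96% at least 1.2-fold higher. The difference between the family genes and those outside the families was not tested. The highest family genes were Ifit3b (136 with control EVs and 227 with CML EVs, 1.676-fold), Rsad2 (554 and 862, 1.555-fold, with a log2 ratio of 0.22 by another probe) and Ifit1bl1 (34.6 and 50.9, 1.469-fold). The paper names Rsad2 among the most upregulated interferon genes of these arrays, so its place here is no independent observation. Of the receptor and ISGF3 genes, Stat2 read 2406 and 2909 (1.209-fold by 1 probe, with a log2 ratio of -0.24 by another), and Tyk2 read 586 and 690 (1.177-fold). The genes Ifnar2 (1893 and 2008), Ifnar1 (1028 and 1071), Jak1 (3803 and 3710) and Irf9 (2791 and 2790) had log2 ratios between -0.036 and 0.085, although other probes gave 0.45 for Ifnar1 and 0.19 for Irf9. Usp18, which removes ISG15 from proteins and shuts off the receptor, read 2171 and 2571 (1.184-fold), and of 6 negative regulators in all 4 were above 0, none past 1.2-fold, with a median of 0.038. Of 14 reference genes 7 were above 0 and 7 below, none past 1.2-fold, with a median of 0.0061.

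**Figure D5:**
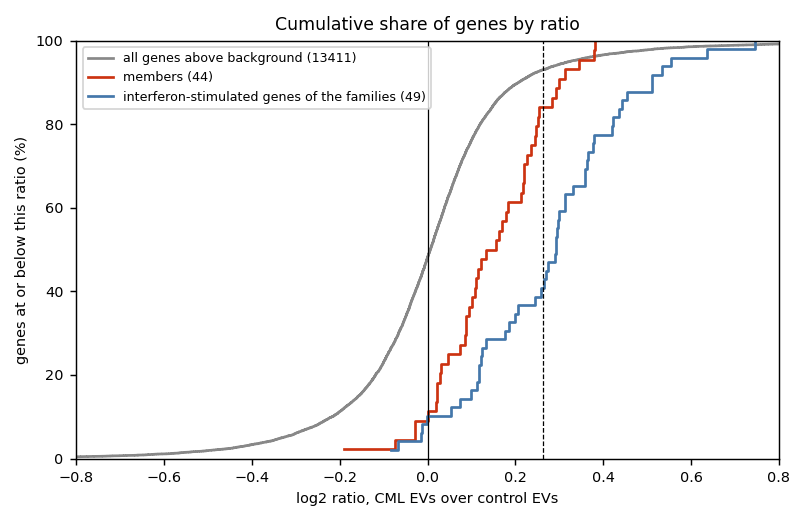
Share of genes (vertical axis, in percent) at or below each log2 ratio (CML EVs over control EVs, horizontal axis) for all 13411 genes above background (grey), the 44 members (red) and the 49 family ISGs (blue), with a dashed line at 1.2-fold. The members' curve starts at -0.19, ends at 0.38 and lies between the other curves through most of the range.

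Marker genes of other cells differed between the conditions as well. For comparison, 51.9% of all genes were higher and 48.1% lower, with 6.96% past 1.2-fold higher and 7.52% past it lower. Granulocyte markers were higher with CML EVs in 14 of 15 measured genes, 13 of them past 1.2-fold, and their summed signal went from 555127 to 729312 (median log2 ratio 0.88). Stem and progenitor markers were lower in 10 of 11 (median log2 ratio -0.11), but only Slamf1 (286 and 221) was past 1.2-fold lower. The exception was Ly6a, an ISG that encodes Sca-1, which was past 1.2-fold higher. Most of the change of their summed signal from 45881 to 41349 lay in Cd34 (24845.4 and 21996.5). Kit read 1647 and 1529, and Mecom was not well above background on either array. Monocyte markers were higher in 9 of 10, with a median log2 ratio of 0.095 and 2 past 1.2-fold, and most of the change of their summed signal from 65432 to 85674 lay in Ly6c2 (30081 and 47021). Plasmacytoid dendritic cell markers were higher in 5 of 8 and lower in 3 (summed 40727 and 43028), with a median log2 ratio of 0.030. The highest ratio was that of Bst2 (8736 and 11345), which is itself a family ISG. Cox6a2 had the lowest (390 and 230), and Siglech read 25926 and 25815. Of the B cell markers, Cd79a, Ms4a1 and Pax5 were not well above background on both arrays, nor was Cd8a of the lineage markers. Of the T and NK cell markers 4 of 7 were measured, 2 of them higher, and of the erythroid markers 3 of 6, 2 of them higher. The part of these shifts in the ISG ratios was not tested.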

How the data were processed

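Gene expression was measured in LKS+ cells with one-colour Agilent arrays, 1 per condition. The authors deposited scanner files with a background-subtracted intensity for 59305 spots per array. The submitters' processing notes name Agilent Feature Extraction, version 12.0.3.1. A value table that the authors deposited beside them equals that intensity multiplied by a constant for each array, on a linear scale (largest relative deviation 5e-10). Spots well above background made up 54.41% with control EVs and 53.34% with CML EVs, and none was saturated.

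Control spots were removed. A factor per array then brought the mean to 2500, computed after trimming 2% of spots at either end. Outlier spots (95 and 88) were left out after this scaling, and log2 values of repeated spots were averaged. Of 56604 probes, 32994 were named through RefSeq accessions (GRCm38.p6). A gene with several probes was represented by its brightest probe with CML EVs. The array files name another assembly, and coordinates are given only for RefSeq promoters. The members, role groups, marker lists, folds and the rule for named genes were chosen with earlier results of these data known. By that rule, signals are given for the 8 highest, 8 lowest, 5 brightest and 5 dimmest members and for both ends of each role, and the others were added. Some items are not reported here. With 1 array per condition, no test across samples was made and the number of arrays limits the precision. Alternatives covered the scaling, normexp background correction (limma 3.58.1, offset 50), the deposited values, the probe of a gene, the filter on dim probes, outlier spots, a loess trend (statsmodels 0.14.6, span 0.3), the fold, the measure of signal and leaving out Isg20. The computing steps were tested on simulated data. Python 3.11.15, numpy 2.4.6, pandas 2.3.3, scipy 1.17.1, matplotlib 3.10.9 and R 4.3.3 were used.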

Additional observations from a re-analysis of the deposited data

How the results depend on the processing

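No paired analysis was possible because there was only 1 array in each condition. Scaling each array to its median shifted all genes by 0.070 on the log2 scale. The median of the members became 0.214, 17 of them were at least 1.2-fold higher and 42 were above 0. The excess of the members over the median of all genes stayed at 0.14 under that scaling and between 0.13 and 0.15 under the other alternatives. At 1.1-fold 22 members counted as higher and at 1.5-fold 0. Spearman's rho of basal signal against ratio was -0.26 after quantile normalization, -0.27 after removal of a loess trend, -0.28 with a gene's probes averaged and 0.0055 after normexp background correction, so that its sign depends on the background correction. Other alternatives gave medians of 0.132 to 0.151, 6 to 9 members past 1.2-fold and 37 to 40 above 0. Apart from the values of rho given above, they gave a rho of -0.20 to -0.084. All 7 members past 1.2-fold stayed past it under the alternatives that rescaled the values or chose other probes, except that Phf11d was lost with normexp. Over these 9 alternatives 37 members were always above 0, Cnp and Plscr1 always below, and Lap3, Ms4a4c, Ogfr, Pnpt1 and Parp11 changed sign under at least 1.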
